A study of Saccharomyces cerevisiae with 25 samples.

Results

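The 4 yeast genes for glucose-phosphorylating enzymes, *HXK1* (YFR053C), *HXK2* (YGL253W), *GLK1* (YCL040W) and *EMI2* (YDR516C), were taken by their systematic names from a count table of 6713 genes. All 4 had counts above 0 in each of the 25 libraries and so were among the 5713 genes that passed the filter on low values. The libraries were made from poly(A) RNA of 25 cultures of 5 haploid *Saccharomyces cerevisiae* strains, with 5 cultures per strain. The study asked how 3 single-nucleotide variants that differ between the BY and RM strains alter the expression of other genes. All 5 strains were derived from the auxotrophic laboratory strain BY4741 (MATa, with deletions in *HIS3*, *LEU2*, *MET15* and *URA3*) and were grown in YNB medium with 2% glucose.

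The *RGT2(V539I)* strain carried the RM allele of the glucose sensor Rgt2, with isoleucine in place of valine. The *OAF1(L63S)* strain carried the RM allele of Oaf1, a transcription factor that activates genes of fatty acid oxidation. In the *OLE1(FAR)* strain an A-to-G change from RM had been placed in the noncoding region upstream of *OLE1*, the fatty acid desaturase gene. YFA1130 was a wild type from which a GFP tag on *FAA4* had been removed, and served as the control for *OAF1(L63S)* and *OLE1(FAR)*. YFA1131 was a wild type in which the BY allele of *RGT2* had been put back in place of a KanMX deletion, and served as the control for *RGT2(V539I)*. Each genotype was a single engineered strain, so the effect of an edit and of any other change in that strain cannot be told apart. Cells were harvested in 3 batches that held 6, 7 and 12 libraries, and the first of these held no library labelled *OLE1(FAR)*.

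Total counts ran from 9216531 to 14644996 per library, of which the 4 genes together took between 0.174% and 0.227%. *LEU2*, *URA3* and *MET17* (the standard name of *MET15*), which BY4741 lacks, were at 0 in every library. The *RGT2* transcript was at 37.4 to 50.0 CPM (counts scaled by library size) in all strains, and an amino acid change need not alter it. In all, 2 libraries went against their labels. In replicate 2 of *OAF1(L63S)*, *POX1* was at 1.58 CPM, where the strain's remaining libraries lay between 17 and 23, and *IZH4* was at 47.6 CPM against 2.63 to 3.67. In replicate 3 of *OLE1(FAR)*, *POX1* was at 28.4 CPM against 0.419 to 2.00, and *IZH4* at 2.43 CPM against 45.3 to 50.7. For both genes the first of these lay within the range of the other libraries labelled *OLE1(FAR)*. The second lay just outside that of the other *OAF1(L63S)* libraries, with *POX1* above it and *IZH4* below it. Why each resembled the other strain was not tested. Both libraries were kept under their labels, and values without them are given beside many of the results on their strains and harvest batches.

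Hexokinases transfer a phosphate from ATP to glucose, which traps the sugar in the cell as glucose 6-phosphate and opens glycolysis. Hxk1 and Hxk2 act on glucose and fructose, while Glk1 is a glucokinase that does not use fructose. Emi2 is the paralog of Glk1, as Hxk1 is of Hxk2. Hxk2 is the main glucose kinase of cells growing on glucose and also takes part in glucose repression, the shutting off of other carbon pathways while glucose lasts. *HXK1* and *GLK1* are known as genes that are repressed by glucose, and *GLK1* is also induced by stress.

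On the R64 assembly (sacCer3), *HXK1* lies at chrVI:253592-255049 on the reverse strand, *HXK2* at chrVII:23935-25395 on the forward strand, *GLK1* at chrIII:50838-52340 on the forward strand and *EMI2* at chrIV:1474974-1476476 on the reverse strand. Each has 1 coding exon. The coding sequences of *HXK1* and *HXK2* were identical at 77.8% of aligned positions, with a longest identical run of 23 bases, and those of *GLK1* and *EMI2* at 69.1%, with a longest run of 15 bases. No stretch of 31 bases was shared between any pair of the 4, and all 4 had whole-number estimated counts in 25 of 25 libraries. For *GLK1*, 106 bases at the start of the gene also belong to YCL042W, an overlapping open reading frame with a mean of 5.10 CPM, and 94.8% of its 31-base stretches were unique among coding sequences.

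Upstream sequences are shown because 3 of the 4 genes varied together between libraries. They run from 250 to 101 bases before the start codon, 5′ to 3′ on the strand of the gene, and the bases nearer the start are left out because they may hold untranslated leader. Matches to any of the motifs described next are in capitals, on either strand. The RefSeq genome of R64 gave chrVI:255150-255299 for *HXK1*, chrVII:23685-23834 for *HXK2*, chrIII:50588-50737 for *GLK1* and chrIV:1476577-1476726 for *EMI2*.
HXK1: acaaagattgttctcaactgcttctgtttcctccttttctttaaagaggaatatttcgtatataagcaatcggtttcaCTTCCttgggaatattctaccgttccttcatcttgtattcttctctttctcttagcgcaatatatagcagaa
HXK2: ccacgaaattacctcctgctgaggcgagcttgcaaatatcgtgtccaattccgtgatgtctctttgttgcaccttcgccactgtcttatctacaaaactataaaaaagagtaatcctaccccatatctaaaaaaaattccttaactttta
GLK1: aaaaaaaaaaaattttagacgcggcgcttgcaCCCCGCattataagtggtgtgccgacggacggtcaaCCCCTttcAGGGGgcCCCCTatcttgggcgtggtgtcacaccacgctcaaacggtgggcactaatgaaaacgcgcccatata
EMI2: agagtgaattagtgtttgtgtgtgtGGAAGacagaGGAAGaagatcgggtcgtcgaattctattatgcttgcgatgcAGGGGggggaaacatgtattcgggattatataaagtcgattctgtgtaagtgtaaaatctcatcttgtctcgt

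Motifs of 4 factors were searched on both strands from 250 bases before to 50 after the start codon of 6007 genes. The core of the stress response element, AGGGG, had 3 matches in *GLK1* and 1 in *EMI2*, and none in *HXK1* or *HXK2*, whereas 21.6% of all windows held it. The GC box bound by the glucose repressor Mig1 (CCGGGG or CTGGGG as well as GCGGGG or GTGGGG) had 1 match, in *GLK1*, and was found in 11.7% of windows. The Gcr1 motif CTTCC, named for an activator of glycolytic genes, had 5 matches in *EMI2* and 1 each in *HXK1* and *GLK1*, and was found in 46.5% of windows. No window of the 4 held the Rgt1 motif CGGANNA, which was in 26.4% of windows. These are matches of letters in a short window and were not tested as binding sites.

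*HXK2* was by far the most abundant of the 4 transcripts and the steadiest. Per kilobase of coding sequence its mean over 25 libraries was 1068 CPM, compared with 128 for *GLK1*, 102 for *HXK1* and 34.7 for *EMI2*. *HXK2* therefore made up 80.5% ± 6.82 (SD, n = 25) of the summed level of the family per kilobase, *GLK1* 9.38% ± 3.68, *HXK1* 7.53% ± 3.26 and *EMI2* 2.58% ± 0.663. Between the lowest and the highest library, *HXK2* ran from 1346 to 1685 CPM, a 1.25-fold range. The others moved much more. *HXK1* ran from 56.5 to 343 CPM (6.08-fold), *GLK1* from 68.9 to 414 (6.0-fold) and *EMI2* from 29.9 to 82.9 (2.77-fold). Within strains the standard deviation of log2 CPM was 0.68 for *HXK1*, 0.73 for *GLK1* and 0.47 for *EMI2*, above those of 98.2%, 98.6% and 94.7% of the genes tested, and 0.097 for *HXK2*, below the median over all genes of 0.13. The plot of each gene by strain shows this spread beside the strain means.

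**Figure D1:**
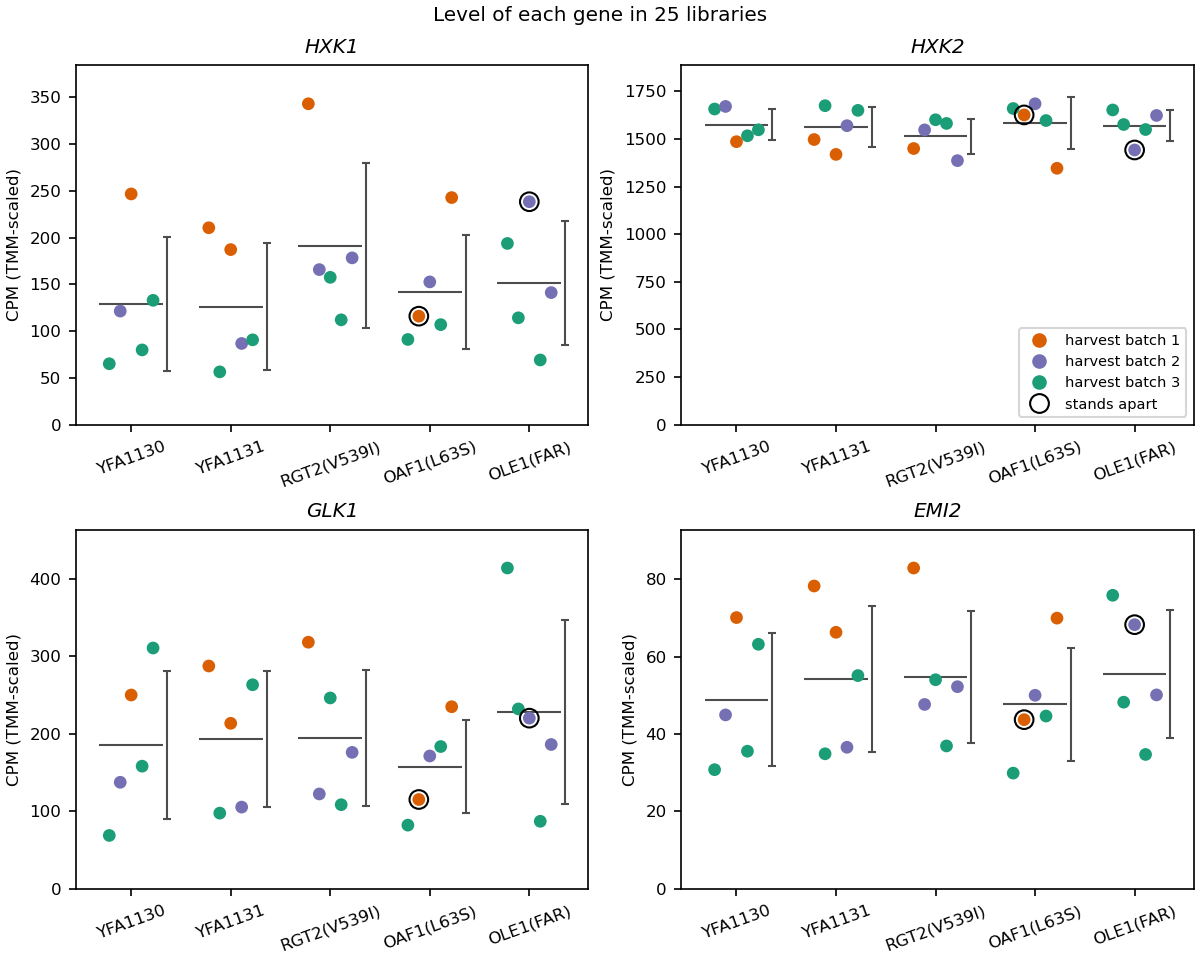
CPM of *HXK1*, *HXK2*, *GLK1* and *EMI2* (vertical axes, from 0) in the 5 libraries of each strain (horizontal axes), coloured by harvest batch. Lines are strain means, bars are 1 SD and rings mark the 2 libraries that went against their labels; the strains overlap in every panel, and libraries of harvest batch 1 lie at or near the top for *HXK1* in each strain that has them except the ringed one.

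*HXK1*, the glucose-repressed hexokinase gene, rose in the *RGT2(V539I)* strain. Its level was 343, 166, 158, 112 and 178 CPM in replicates 1 to 5 of *RGT2(V539I)*, and 211, 56.5, 187, 86.8 and 90.7 CPM in those of YFA1131. The unadjusted levels overlapped, with means of 191 ± 88.4 CPM (SD, n = 5) and 126 ± 68.0 (SD, n = 5). With harvest, RNA isolation and library preparation batches and 2 surrogate variables in the fit, the log2 fold change was 0.73 (standard error 0.12, 95% interval 0.48 to 0.97), a 1.65-fold increase with an edgeR adjusted p of 0.00496. By p-value *HXK1* ranked 6 of 5713 genes. It was the only one of the 4 to be called in this comparison at a false discovery rate (FDR) of 10%, where 60 genes or 1.05% of all those tested were called.

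Each RNA isolation batch held 1 library of each strain, and *HXK1* was higher in *RGT2(V539I)* than in YFA1131 in 4 of 5 isolation batches. In those 4 batches both libraries also came from the same harvest batch, and *HXK1* was higher by 1.74-, 1.99-, 2.05- and 1.83-fold. In isolation batch 5, where the *RGT2(V539I)* library was from harvest batch 2 and the YFA1131 library from harvest batch 1, it was at 0.787 times the YFA1131 level. This split by harvest was noticed after the values were seen. Compared within harvest batches 1, 2 and 3, the mean log2 CPM of *HXK1* was higher in *RGT2(V539I)* by 0.79, 0.99 and 0.89, each from 1 or 2 libraries per strain. The plot of the paired libraries shows the pairs.

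**Figure D2:**
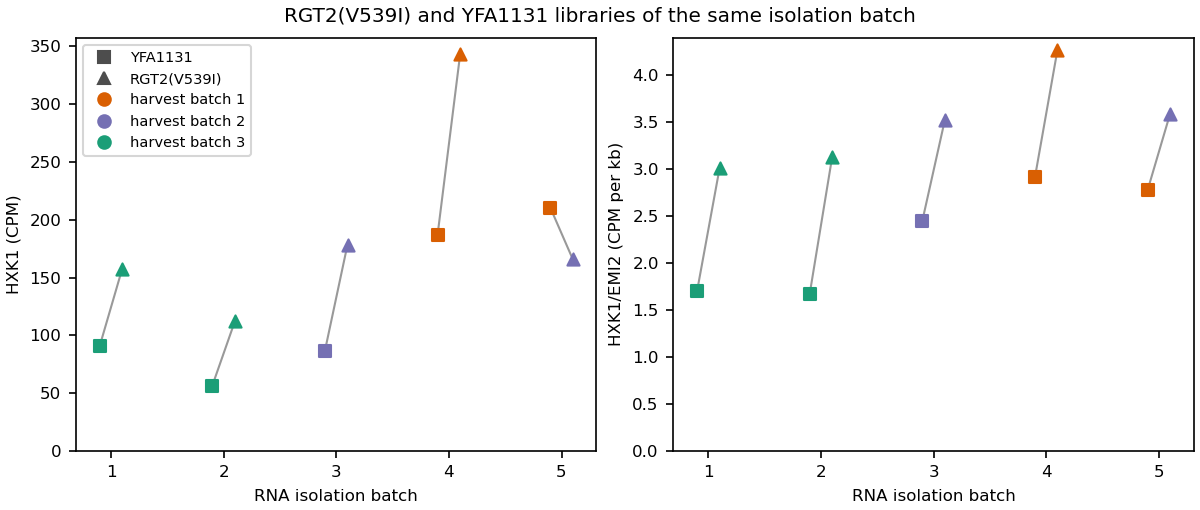
*HXK1* in CPM (left) and the *HXK1*/*EMI2* ratio of CPM per kilobase (right) for the *RGT2(V539I)* and YFA1131 libraries of each RNA isolation batch (horizontal axes), with grey lines joining the pair and colours for harvest batch. *HXK1* was higher in *RGT2(V539I)* in 4 of 5 batches, and the ratio, at 3.01 to 4.27 against 1.67 to 2.91, in all of them.

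The call of *HXK1* depended on the terms in the fit, though each of 10 fits that left out 1 library kept it. With genotype as the only term the log2 fold change of *HXK1* was 0.60 with an edgeR adjusted p of 0.999. A fit of both strains alone (10 libraries) had isolation batch as its only other term and no surrogate variables. It gave 0.67 with an edgeR adjusted p of 0.289. With all terms but without the 2 libraries that went against their labels, the log2 fold change was 0.80 (edgeR adjusted p = 0.00167).

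The other 3 genes were not called in *RGT2(V539I)*, and the intervals given next hold with the 2 surrogate variables in the fit. For *HXK2* the log2 fold change was -0.021 (95% interval -0.097 to 0.055), with 1514 ± 91.8 CPM in *RGT2(V539I)* and 1563 ± 106 in YFA1131 (SD, n = 5 each). *GLK1* was at -0.061 (-0.28 to 0.16) and *EMI2* at 0.028 (-0.16 to 0.21). Without surrogate variables both lay above these intervals, *GLK1* at 0.36 and *EMI2* at 0.25, and neither was called (edgeR adjusted p = 0.832 and 0.828). Within harvest batches 1, 2 and 3 the difference in mean log2 CPM was 0.36, 0.48 and 0.028 for *GLK1*, and 0.20, 0.45 and 0.027 for *EMI2*. Edited and control levels of *GLK1* and *EMI2* overlapped widely, at 194 ± 87.8 and 193 ± 88.1 CPM for *GLK1*, and at 54.7 ± 17.1 and 54.2 ± 18.8 for *EMI2* (SD, n = 5 each).

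None of the 4 genes was called in *OAF1(L63S)* or *OLE1(FAR)*, where 1.17% and 0.98% of the genes tested were. *HXK1* was at 91.1, 116, 153, 107 and 243 CPM in replicates 1 to 5 of *OAF1(L63S)*, and at 65.1, 121, 247, 79.9 and 133 CPM in those of YFA1130, with a log2 fold change of 0.17 (95% interval -0.066 to 0.40). In *OLE1(FAR)* it was at 194, 114, 238, 69.2 and 141 CPM, with a log2 fold change of 0.14 (-0.10 to 0.38). Without the 2 libraries that went against their labels *HXK1* was at 0.18 in *OAF1(L63S)* and 0.12 in *OLE1(FAR)*. Without surrogate variables it was at 0.013 and 0.43, the latter outside its interval and not called (edgeR adjusted p = 0.944), and leaving out replicate 1 of *OLE1(FAR)* took that strain to -0.077. Within harvest batches 2 and 3 the mean log2 CPM of *HXK1* was higher in *OLE1(FAR)* than in YFA1130 by 0.60 and 0.38. The value for batch 2 rests in part on replicate 3, which went against its label, at 238 CPM against 141 in replicate 5. In *OAF1(L63S)* the mean log2 CPM of *HXK1* differed by -0.56, 0.33 and 0.16 in batches 1, 2 and 3. The first of these rests in part on the library that went against its label. Within both contrasts the strains overlapped from end to end. The widest difference among the remaining genes was that of *EMI2* in *OLE1(FAR)*, at 0.11 (-0.077 to 0.30), which was 0.34 without surrogate variables and 0.040 without the 2 libraries that went against their labels. Between the wild types, YFA1131 against YFA1130, 0.14% of genes were called and again none of the 4. *HXK1* differed there by -0.21 (-0.43 to 0.021), and by -0.32 without the same 2 libraries. It was lower in YFA1131 than in YFA1130 within harvest batches 1, 2 and 3, with differences of -0.31, -0.48 and -0.31 in mean log2 CPM, so the control of *RGT2(V539I)* was the lower of the wild types.

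The difference between effects was tested directly, with each effect taken against its own wild type. *HXK1* was at -0.21 in YFA1131 against YFA1130, and this gap between the controls is part of the differences given next. The effect on *HXK1* in *RGT2(V539I)* exceeded that in *OLE1(FAR)* by 0.59 on the log2 scale (95% interval 0.27 to 0.91, edgeR adjusted p = 0.0627), and *HXK1* was the only one of the 4 to be called in a contrast in which 2.15% of genes were. That call was lost without surrogate variables (0.54, edgeR adjusted p = 0.908), when the isolation batches were not used as a replicate block (0.50, edgeR adjusted p = 0.138) and in 9 of 20 fits that each left out 1 library, the lowest value being 0.50 without replicate 4 of *OLE1(FAR)* (edgeR adjusted p = 0.304). The others were those without replicate 5 of *OLE1(FAR)*, replicates 2, 3 and 4 of *RGT2(V539I)*, and replicates 1 and 3 of each wild type, at 0.52 to 0.58. Against *OAF1(L63S)* the difference was 0.56 (0.22 to 0.90, edgeR adjusted p = 0.273), in a contrast in which 0.7% of genes and none of the 4 were called. Each of these contrasts includes 1 library that went against its label. Over 8 fits, the main one and that without the 2 libraries among them, the *HXK1* difference from *OLE1(FAR)* ran from 0.50 to 0.69. Its difference from *OAF1(L63S)* ran from 0.50 to 0.96 and was not called in any of them. The fitted differences of all 4 genes are shown together.

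**Figure D3:**
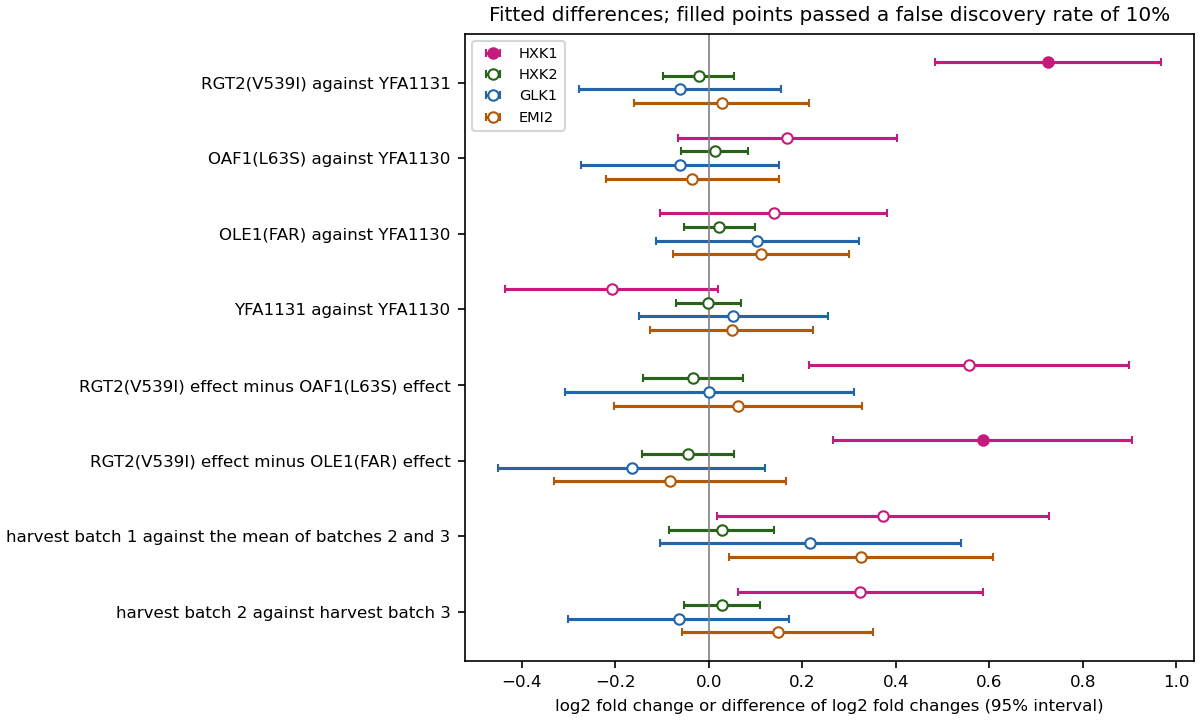
Log2 fold changes, or differences between them, of the 4 genes in 8 comparisons (vertical axis) with 95% intervals on the horizontal axis; filled points passed an FDR of 10% over 5713 genes. *HXK1* is filled in *RGT2(V539I)* against YFA1131 (0.73) and in the difference between the *RGT2(V539I)* and *OLE1(FAR)* effects (0.59), and all points of *HXK2* lie near 0.

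Ratios within a library do not depend on how libraries are scaled. For the 4 ratios chosen to describe the make-up of the family, none differed between a strain and its control in tests that took no account of harvest batch (exact permutation tests, two-sided, Benjamini-Hochberg adjusted p = 0.976 in all 16 tests, where the smallest p that 5 against 5 libraries allow is 0.00794). The *HXK1*/*HXK2* ratio per kilobase was 0.129 ± 0.0641 in *RGT2(V539I)* and 0.0835 ± 0.0493 in YFA1131 (SD, n = 5 each), a difference of 0.72 in mean log2 ratio (exact permutation p = 0.222). Within harvest batches 1, 2 and 3 this difference was 0.80, 1.09 and 0.96, each from 1 or 2 libraries per strain and without a test. Leaving out 1 library gave 0.44 (without replicate 2 of YFA1131) to 0.96, with 0.46 without replicate 1 of *RGT2(V539I)*. Pairing by isolation batch gave an exact permutation p of 0.125, in a test that cannot reach a p under 0.05 with 5 pairs. In *OLE1(FAR)* the *HXK1*/*HXK2* difference was 0.27, and 0.044 without the library that went against its label. The *EMI2*/*GLK1* ratio was 0.301 ± 0.0663 and 0.299 ± 0.0603 in the same strains. When all 6 pairs of genes were looked at, a step added after the values were seen, *HXK1*/*EMI2* was the only ratio whose values did not overlap between *RGT2(V539I)* and YFA1131. It was 4.27, 3.59, 3.01, 3.13 and 3.52 in replicates 1 to 5 of *RGT2(V539I)*, and 2.77, 1.67, 2.91, 2.45 and 1.70 in those of YFA1131. Its difference of 0.64 in mean log2 ratio had the smallest p the design allows (exact permutation p = 0.00794, adjusted p = 0.190 over 24 tests). The *HXK1*/*EMI2* ratio was 2.17 to 3.63 in YFA1130, 2.47 to 3.58 in *OAF1(L63S)* and 2.05 to 3.6 in *OLE1(FAR)*, and *RGT2(V539I)* overlapped with each of these. In *OLE1(FAR)* only replicate 3, which went against its label, reached the *RGT2(V539I)* range, and without it the strain ran from 2.05 to 2.91 and did not overlap.

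The make-up of the family also differed between harvest batches. *HXK1* was at 224 ± 75.2 CPM (SD, n = 6) in harvest batch 1, 155 ± 47.6 (n = 7) in batch 2 and 106 ± 40.2 (n = 12) in batch 3. *EMI2* was at 68.5 ± 13.6, 50.0 ± 9.57 and 45.3 ± 14.4 CPM in the same batches, and *GLK1* at 237 ± 70.2, 160 ± 40.0 and 188 ± 108. *HXK2* had the opposite order to *HXK1* and *EMI2*, with 1471 ± 93.6, 1561 ± 113 and 1606 ± 52.6 CPM. The *HXK1*/*HXK2* ratio was 2.00-fold higher in batch 1 than in batches 2 and 3 (difference of 1.00 in mean log2 ratio, exact permutation p = 0.00163, adjusted p = 0.0130 over 8 tests). The share of *HXK2* in the family was 74.0% ± 6.45 in batch 1, 81.3% ± 4.59 in batch 2 and 83.3% ± 6.30 in batch 3 (batch 1 against the later ones, exact permutation p = 0.00404, adjusted p = 0.0162). *EMI2*/*GLK1* differed little, at 0.30 ± 0.0427, 0.319 ± 0.0399 and 0.283 ± 0.0914. The ratio of *GLK1* and *EMI2* together to *HXK1* and *HXK2* together was 1.44-fold higher in batch 1 than later (difference of 0.53 in mean log2 ratio, exact permutation p = 0.0658, adjusted p = 0.132). That difference was 0.74 without the 2 libraries that went against their labels (exact permutation p = 0.0156) and 0.61 with values centred on strain means (exact permutation p = 0.0266), both unadjusted. Batch 2 against batch 3 gave no ratio with an adjusted p under 0.05, the smallest being that of *HXK1*/*HXK2* (difference 0.62, exact permutation p = 0.0254, adjusted p = 0.0676).

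**Figure D4:**
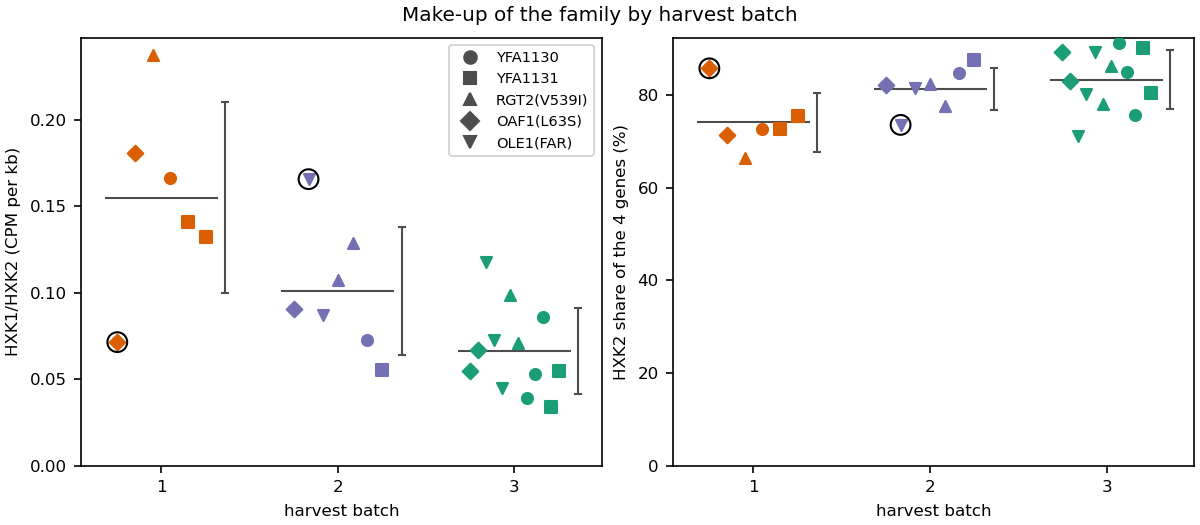
The *HXK1*/*HXK2* ratio of CPM per kilobase (left) and the percentage of the family's summed level that was *HXK2* (right) in 25 libraries by harvest batch (horizontal axes), with symbols for strains, lines for means, bars for 1 SD and rings for the 2 libraries that went against their labels. The mean ratio is 0.155, 0.101 and 0.0661 in batches 1, 2 and 3, and the ringed library of batch 1, at 0.0715, is the lowest of its batch.

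Both libraries that went against their labels also stood out here. Replicate 2 of *OAF1(L63S)* had the lowest *HXK1* level of harvest batch 1, 116 CPM against 187 to 343 in the other 5 libraries, and replicate 3 of *OLE1(FAR)* had the highest of harvest batch 2, 238 CPM against 86.8 to 178 in the other 6. Without them, the *HXK1* levels of batches 1 and 2 did not overlap, whereas batch 3, at 56.5 to 194 CPM, overlapped with batch 1. *HXK1*/*HXK2* then differed between batch 1 and the later ones by 1.27 in mean log2 ratio (exact permutation p = 2.97e-05, unadjusted). With the same libraries left out, the edgeR fit called 17.1% of all genes tested between batch 1 and the later ones. How cells came to differ between harvest batches was not tested.

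Across all genes, the fit with 2 surrogate variables called 1.52% of genes between harvest batch 1 and the mean of batches 2 and 3, and none of the 4. The log2 differences were 0.37 for *HXK1* (95% interval 0.018 to 0.73, edgeR adjusted p = 0.452), 0.33 for *EMI2* (0.044 to 0.61, edgeR adjusted p = 0.409), 0.22 for *GLK1* (-0.11 to 0.54) and 0.028 for *HXK2* (-0.084 to 0.14). Leaving out single libraries moved these values, and without replicate 2 of *OAF1(L63S)* *HXK1* was at 0.14, *EMI2* at 0.044 and *GLK1* at -0.14. Without replicate 1 of *OLE1(FAR)*, *HXK1* was at 0.19 and *EMI2* at 0.18, and without replicate 5 of *OAF1(L63S)* *HXK1* was at 0.22. Surrogate variables are estimated from the counts and can take up differences that go with a batch. Without them all 4 genes were called, *HXK1* at 1.10 (edgeR adjusted p = 0.000485), *GLK1* at 0.94 (0.0352), *EMI2* at 0.77 (0.00291) and *HXK2* at -0.15 (0.0106), among 30% of all genes. With surrogate variables but without the 2 libraries that went against their labels, all 4 were called as well, *HXK1* at 1.00 (edgeR adjusted p = 0.000511), *GLK1* at 0.68 (0.00177), *EMI2* at 0.58 (0.00334) and *HXK2* at -0.18 (0.0411), among 17.1% of genes. Between harvest batches 2 and 3 only 1 gene of 5713, or 0.0175%, was called (240 at an unadjusted p under 0.05 in edgeR, and 13 called by DESeq2). It was none of the 4, and *HXK1* differed there by 0.32 (edgeR adjusted p = 0.951).

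*HXK1*, *GLK1* and *EMI2* moved together from library to library. *HXK2* was inversely related to *HXK1* and *EMI2*, with no test passed for *GLK1*. Over the 20 libraries of the 4 strains other than *RGT2(V539I)*, log2 CPM of *GLK1* and *EMI2* had a Pearson r of 0.91 and a Spearman rho of 0.91, and *HXK1* and *EMI2* an r of 0.90 and a rho of 0.88 (permutation p = 1e-05 for each, the smallest that 100000 resamples can give, adjusted p = 3e-05 over 6 pairs). *HXK1* and *GLK1* were less close, with r = 0.74 and rho = 0.70 (permutation p = 0.00025 and 0.00058, adjusted p = 0.0005 and 0.00116). *HXK1* and *HXK2* were inversely related, with r = -0.59 and rho = -0.49 (permutation p = 0.00591 and 0.0311, adjusted p = 0.00887 and 0.0373), as were *HXK2* and *EMI2*, with r = -0.53 and rho = -0.50 (permutation p = 0.0147 and 0.0242, adjusted p = 0.0176 and 0.0363). For *HXK2* and *GLK1*, r was -0.37 and rho -0.44 (permutation p = 0.112 and 0.0531, adjusted p = 0.112 and 0.0531).

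These relations were also looked at within harvest batches. For *GLK1* and *EMI2*, r was 1.00, 0.90 and 0.96 in batches 1, 2 and 3 (n = 6, 7 and 12, all strains), and for *HXK1* and *EMI2* it was 0.91, 0.96 and 0.81. The inverse relation of *HXK1* with *HXK2* was closest to 0 in the largest batch, with r = -0.65, -0.55 and -0.11. The same held for *HXK2* with *GLK1*, at -0.61, -0.32 and -0.16, and with *EMI2*, at -0.65, -0.47 and -0.043. Without the 2 libraries farthest from the median of *HXK1*, r with *HXK2* was -0.53, and without those farthest from the median of *GLK1*, r of *GLK1* with *EMI2* was 0.87. Leaving out the 2 libraries that went against their labels gave r = -0.55 for *HXK1* and *HXK2*, and 0.92 for *GLK1* and *EMI2*. Libraries of 1 harvest batch have their cell harvest in common, so they are not fully independent points.

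**Figure D5:**
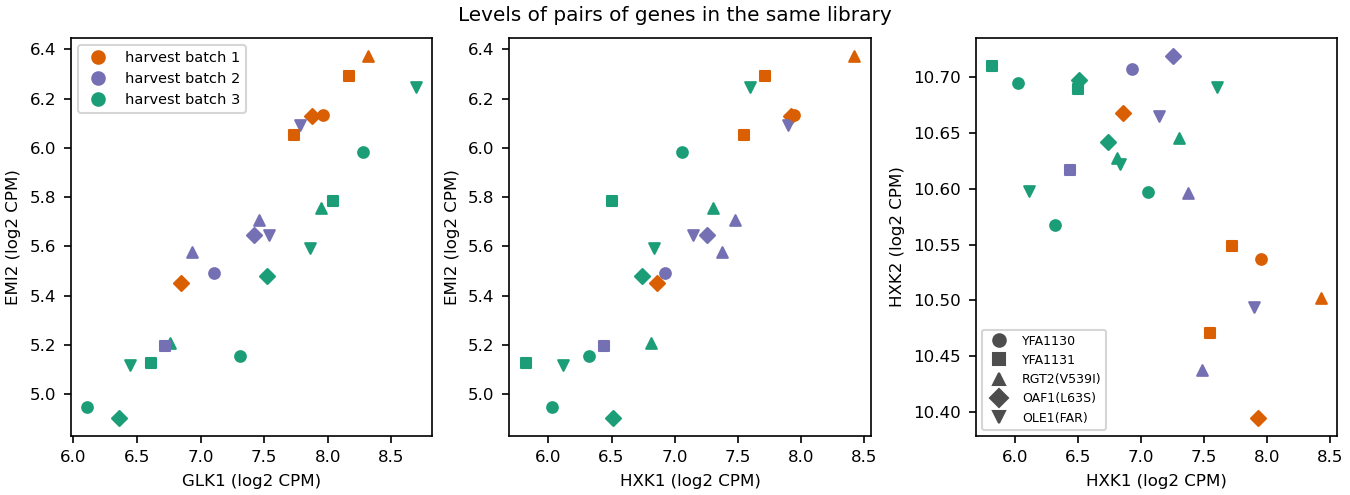
Log2 CPM of *EMI2* against *GLK1* (left), *EMI2* against *HXK1* (middle) and *HXK2* against *HXK1* (right), 1 point per library (25 in all), with colours for harvest batch and symbols for strain. The first pairs rise together (r = 0.91 and 0.90 over the 20 libraries outside *RGT2(V539I)*), and *HXK2* falls as *HXK1* rises (r = -0.59).

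The genes whose levels over the 25 libraries were most like each member differed between members. *GLK1* was closest to *TPS1* (r = 0.98), which makes trehalose 6-phosphate, *GPD1* (0.97), which makes glycerol 3-phosphate, *PNC1* (0.97), a nicotinamidase, and *HSP104* and *HSP78* (0.96 each), chaperones that dissolve protein aggregates. *EMI2* was closest to *GSY2* (0.96), a glycogen synthase, *NNR2* (0.96), which repairs hydrated NADH, *OM45* (0.96), a protein of the outer mitochondrial membrane, *LSP1* (0.96), a component of eisosomes, and *TFS1* (0.95), an inhibitor of carboxypeptidase Y. For *HXK1* the list was YFR052C-A (0.97), an ID without an entry in the annotation used here, so that whether it shares reads with *HXK1* was not tested, *PRX1* (0.94), a mitochondrial peroxiredoxin, *ALD4* (0.94), a mitochondrial aldehyde dehydrogenase, *GOR1* (0.93), a glyoxylate reductase, and *MSC1* (0.93). *HXK2* was closest to *PRS5* (0.91), which makes phosphoribosyl pyrophosphate, *EFT1* (0.90), translation elongation factor 2, *SSB2* and *SSB1* (0.90 each), ribosome-bound chaperones, and *SAH1* (0.90), which breaks down S-adenosylhomocysteine. *EFT1*, *SSB1* and *SSB2* have near-identical copies among which reads can be split. As a background, 14.8% of all genes had an r over 0.5 with *HXK1*, 10.0% with *GLK1*, 13% with *EMI2* and 15.3% with *HXK2*, and all these correlations share harvest batch and library.

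Lists of related genes were chosen with earlier results of these data known, so calls within them are description only. In the *RGT2(V539I)* strain, where 1.05% of all genes tested were called, the listed genes called were in the lists for sugar uptake and glucose signalling. Of 17 hexose transporter genes 9 were tested, and 3 rose and 1 fell. *HXT4* rose by 1.61 on the log2 scale (standard error 0.11, edgeR adjusted p = 9.73e-08), *HXT7*, which shares reads with the near-identical *HXT6*, by 1.31 (0.19, 0.00206) and *HXT2* by 0.90 (0.22, 0.0737). *HXT1*, the low-affinity transporter induced by the Rgt2 signal, changed by -0.55 (0.070, 0.000555). Of 24 genes of glucose sensing and repression, 1 rose and 3 fell. *MTH1*, a corepressor of hexose transporter genes, rose by 0.46 (0.10, edgeR adjusted p = 0.0468), whereas the repressor genes *MIG3* (-0.78, 0.081, 4.11e-05) and *MIG2* (-0.34, 0.074, 0.0462) and *STD1*, the paralog of *MTH1* (-0.17, 0.041, 0.0799), fell. None of the 6 genes that act first on glucose 6-phosphate, the 14 genes of glycolysis below it or the 8 other sugar and polyol kinases was called. The median log2 fold change was 0.12 for the 9 hexose transporters, -0.043 for the 24 signalling genes, -0.016 for the 6 users of glucose 6-phosphate, -0.039 for the 14 glycolytic genes and -0.0045 for the 8 kinases, against -0.0076 over all genes.

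No gene of these lists was called in *OAF1(L63S)*, in *OLE1(FAR)* or between the wild types. Between harvest batch 1 and the later ones, *MIG2* was the only listed gene called, at 0.42 (standard error 0.11, edgeR adjusted p = 0.0977). The lists were looked at only in the fit with surrogate variables and all libraries, which called 1.52% of genes in that contrast. The share was 17.1% without the 2 libraries that went against their labels and 30% without surrogate variables, and the lists were not looked at there.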

How the data were processed

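Poly(A) RNA of 25 cultures was sequenced with a directional kit. The authors trimmed reads with Trimmomatic 0.38 after demultiplexing with bcl2fastq 2.20.0.422 and deposited the estimated counts that kallisto gave per gene (version not given in the sources used here; builds named by the submitters, R64 and sacCer3). Of these values 6.46% were not whole, and all were rounded. Systematic names were paired with symbols through the RefSeq annotation of R64, which matched 6025 of 6713 names (89.8%). No per-sample column was left unused.

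Groups came from the labels, and replicates were numbered in accession order. Per the labels, RNA was isolated in 5 batches with 1 sample of each strain in each, and these batches formed the replicate block. Harvest, isolation and preparation batches came from the study's sample table. Libraries of the same isolation batch deviated together in some pairs only, as r over genes was -0.39 to 0.45 in 20 pairs and above 0.1 in 10. Among 50 same-strain pairs, counts differed by more than sampling noise in each (chi-square per degree of freedom 5.40 to 53.3). Cultures were separate, but each strain was 1 isolate, so p-values measure the spread between cultures.

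All 25 libraries were fitted together with edgeR 4.0.16 (R 4.3.3), by its quasi-likelihood test after TMM scaling (factors 0.934 to 1.09), over 5713 genes with a count above 0 in every library. Terms were genotype, 3 harvest, 5 isolation and 2 preparation batches, and 2 surrogate variables (sva 3.50.0). Adjusted p-values are Benjamini-Hochberg over all genes, with calls at an FDR of 10%. The step was tested on simulated counts that held no batch effects, with changes placed in *RGT2(V539I)* only. That test therefore does not cover how batches or surrogate variables act on the calls. CPM are TMM-scaled, log2 values use a prior count of 0.5, and counts per kilobase use coding length. Ratios were tested by exact two-sided permutation over libraries. Alternatives were DESeq2 1.42.0, its size factors, no filter, fewer or more terms, other controls and leaving out libraries.

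The text names the 4 members, the 5 genes most correlated with each, up to 4 called genes per list with the smallest p in *RGT2(V539I)* against YFA1131, and genes that check strains or libraries. Members and gene lists were chosen with earlier results of these data known. The *HXK1*/*EMI2* ratio and the comparison of pairs by harvest were chosen after seeing the data. Sequences came from the RefSeq R64 genome.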

Additional observations from a re-analysis of the deposited data

Results flagged for a closer look

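Of 49 groups of 5 to 7 libraries in which levels or ratios of these genes were looked at, 3 held a library far from the others, where chance alone would give about 1 in 20 groups. Replicate 1 of *RGT2(V539I)* had 343 CPM of *HXK1*, where its strain's other libraries had 112 to 178. It was the only *RGT2(V539I)* library of harvest batch 1, and without it the log2 fold change of *HXK1* was 0.82 with an edgeR adjusted p of 0.00740. Replicate 5 of *OAF1(L63S)*, also from harvest batch 1, had *HXK2* at 1346 CPM, against 1597 to 1685 in the other 4, and an *HXK1*/*HXK2* ratio of 0.181, against 0.0550 to 0.0908. The effect of *RGT2(V539I)* on *HXK1* differed from that of *OLE1(FAR)* by 0.59 on the log2 scale in a test of the difference itself (edgeR adjusted p = 0.0627), and the 2 effects were measured against different wild types.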

How the results depend on the processing

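The limits come from batches and from single libraries. Each edit was measured in 1 strain, and harvest batch 1 held 6 libraries and none labelled *OLE1(FAR)*. The rise of *HXK1* in *RGT2(V539I)* was called at 0.61 to 0.97 in every fit with terms for harvest and preparation batch, and leaving out each of 10 libraries gave 0.67 to 0.82 (edgeR adjusted p 0.00201 to 0.0476). With genotype as the only term (0.60), or with both strains alone and isolation batch as the only other term (0.67), 0 of the 4 genes were called. In these fits *GLK1* stood at 0.0054 and 0.038 in place of -0.061. The cause was not tested for these or the changes given next. Without surrogate variables *GLK1* was at 0.36 in *RGT2(V539I)*, the difference between the *RGT2(V539I)* and *OLE1(FAR)* effects on *HXK1* was 0.54 and not called (0 of 4 genes), and in harvest batch 1 all 4 genes were called, with *HXK2* at -0.15. Without both libraries that went against their labels *GLK1* was at 0.010 in *RGT2(V539I)*, 4 of 4 genes were called in harvest batch 1 with *HXK2* at -0.18, and the *EMI2*/*GLK1* ratio there differed by -0.0083. When the replicate block of RNA isolation batches was dropped, *HXK1* in *RGT2(V539I)* was at 0.66 (edgeR adjusted p = 0.00194) and *EMI2* at -0.0088, while the *RGT2(V539I)* minus *OLE1(FAR)* difference of *HXK1* fell to 0.50 and 0 of 4 genes were called; no other call on the 4 genes changed with the block. The *EMI2*/*GLK1* difference also changed sign with medians, to -0.065 in *RGT2(V539I)* and -0.038 in harvest batch 1, and with values centred on strain means, to -0.0026 in harvest batch 1.

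Leaving out 1 library at a time, *HXK1* in the *RGT2(V539I)* minus *OLE1(FAR)* difference ran from 0.50 to 0.72, with 0 or 1 of the 4 genes called. Log2 fold changes that were not called in any of these fits changed sign: -0.033 to 0.0031 for *HXK2* and -0.0056 to 0.099 for *EMI2* in *RGT2(V539I)*, -0.077 to 0.21 for *HXK1* and -0.065 to 0.21 for *EMI2* in *OLE1(FAR)*, and -0.0033 to 0.049 for *HXK2* and -0.14 to 0.29 for *GLK1* in harvest batch 1. The *EMI2*/*GLK1* log2 ratio differed by -0.12 to 0.11 in *RGT2(V539I)* and by -0.015 to 0.094 in harvest batch 1, and the *HXK1*/*HXK2* log2 ratio by 0.86 to 1.20 in harvest batch 1.

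Counts of genes called over the whole table moved by more than 1.5 times. *RGT2(V539I)* had 60, against 37 without surrogate variables, 4 with genotype only, 13 with both strains alone, 27 with both wild types as control and 100 without both libraries. *OAF1(L63S)* had 67, against 10, 3, 0 and 126 under the first 4 of these, and *OLE1(FAR)* 56, against 5, 3 and 1 under the first 3 and 31 under the last. For the wild types 8 became 33 with DESeq2, 4 without surrogate variables, 1 with genotype only, 0 with both strains alone, 13 without the block and 70 without both libraries. The difference between effects had 40 for *OAF1(L63S)*, against 8 without surrogate variables, and 123 for *OLE1(FAR)*, against 4, or 65 without the block. Harvest batch 1 had 87, against 1716 without surrogate variables, 229 without the block and 979 without both libraries, and batch 2 against 3 had 1, against 188, 35 and 38, or 13 with DESeq2. Leaving out 1 library at a time gave 15 to 53 genes for *RGT2(V539I)*, 42 to 72 for *OAF1(L63S)*, 33 to 74 for *OLE1(FAR)*, 5 to 33 for the wild types, 13 to 47 and 52 to 175 for the differences from *OAF1(L63S)* and *OLE1(FAR)*, 12 to 102 for harvest batch 1 and 0 to 4 for batch 2 against 3.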
